A study of Homo sapiens with 9 samples.

Results

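The sirtuins are the 7 human genes SIRT1 to SIRT7, and they were taken by symbol from the deposited expression table, where all 7 were present among 16772 genes. The table held RNA sequencing values from DU145, a cell line established from a human prostate carcinoma, treated over 6 days. DMSO, the solvent, was the control. The other groups received the compound H93 at 20 µM or SAHA (vorinostat) at 500 nM, both dissolved in DMSO, and each group had 3 libraries. The labels give the genotype of every group as WT. They state the H93 dose in micromolar and write the SAHA dose as 500 nm, which is taken to mean nanomolar. UHRF1, a protein that reads hemimethylated DNA, is named in the series title as the target of H93, and H93 was set against both SAHA and DMSO. Each comparison rests on 1 dose of each compound.

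Sirtuins remove acetyl and other acyl groups from lysine residues. They consume NAD+ in the reaction and release nicotinamide, which in turn inhibits them, so their activity is tied to the cellular NAD+ supply as well as to their own abundance. The zinc-dependent histone deacetylases, which SAHA inhibits, are a separate enzyme family that does not use NAD+, and hydroxamates such as SAHA do not inhibit sirtuins. SIRT1, SIRT6 and SIRT7 are mainly nuclear, with SIRT7 enriched in nucleoli. SIRT2 is mainly cytosolic, and SIRT3, SIRT4 and SIRT5 are mitochondrial.

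The values were FPKM, fragments scaled for transcript length and library size and so can be compared between genes. Absolute read depth was unknown, and the spacing of the lowest values put the libraries between 0.875 and 1 of the deepest. Per library the FPKM of all genes summed to between 348656 and 355741. Pearson correlations across genes were between 0.9976 and 0.9983 for replicates of a group, and between 0.972 and 0.973 for DMSO against H93. Of 9 epithelial markers 8 were in the table, and they summed to 1905 to 1944 FPKM in DMSO, 2131 to 2172 in H93 and 2052 to 2132 in SAHA. Single markers differed by treatment in both directions: KRT19 was 169, 420 and 327 FPKM on average in DMSO, H93 and SAHA, EPCAM was 67.1, 30.5 and 37.8, and CDH1 was 13.3, 4.34 and 5.09. Of 5 immune markers 3 were in the table, with sums of 22.7 to 23.3 in DMSO, 28.4 to 30.2 in H93 and 32.7 to 35.5 in SAHA. CD68, a lysosomal protein gene, made up nearly all of these sums at 22.4, 28.3 and 33.4, CD14 was between 0.541 and 1.13 in all libraries, and the defining leukocyte marker PTPRC was listed at 0 in DMSO and reached at most 0.0179. The part of these marker differences in the sirtuin results was not tested.

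Tests used limma on log2(FPKM + 1) with Benjamini-Hochberg adjustment over the 11525 genes that reached an FPKM of 1 in at least 3 libraries. Genes are said to have risen or fallen where the adjusted p was under 0.05. Differences on this scale understate the change of genes with low FPKM, so ratios of mean FPKM are given beside them. Nothing in the labels ties replicates to separate cultures. The spread that the p-values rest on is therefore that of these 9 libraries and could be purely technical. In RNA from whole cultures, fewer cells expressing a gene and less of its RNA per cell cannot be told apart.

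The sirtuin transcripts did not all move one way with either compound. SIRT1 and the mitochondrial SIRT3 fell with both compounds, while SIRT2 and SIRT6 rose with both. SIRT5 fell with H93, and SIRT7 was higher in H93 than in SAHA. SIRT4 was too low for the test. With H93, 5 of the 6 tested sirtuins passed against DMSO, 2 higher and 3 lower. Over all 11525 genes 69.8% passed, 34.9% higher and 35.0% lower, so the number of sirtuins that passed is close to that background. With SAHA, 4 of 6 passed, 2 higher and 2 lower, against 58.8% of all genes, of which 27.4% were higher and 31.4% lower. In H93 against SAHA 3 of 6 passed, 2 higher and 1 lower, against a background of 31.5% of all genes, 17.6% higher and 13.9% lower. The median absolute log2 difference of the tested sirtuins was 0.41 with H93 and 0.31 with SAHA, beside 0.20 and 0.15 over all tested genes. All libraries of one group lay above or below all of the other for 5 of the 6 tested sirtuins with H93 (73.2% of tested genes) and for 5 of 6 with SAHA (64.1% of tested genes). Between H93 and SAHA this held for 3 of 6 (44.4% of tested genes). Both comparisons with DMSO share the same 3 DMSO libraries.

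**Figure D1:**
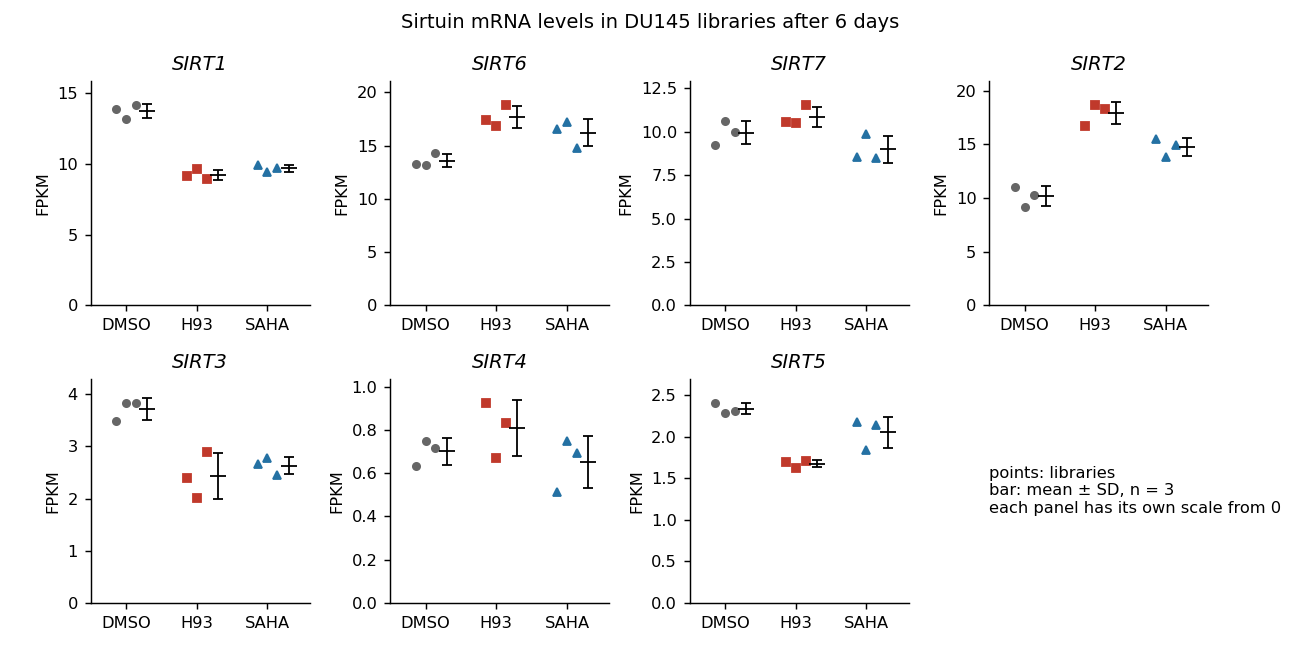
FPKM of each sirtuin by treatment group, with 1 point per library and a bar for the mean ± SD (n = 3), every panel on its own linear scale from 0. SIRT1 was at least 13.2 in every DMSO library and at most 9.90 in every treated library, whereas SIRT2 was at most 11.01 in DMSO and at least 13.8 in treated libraries.

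SIRT1, the nuclear deacetylase of histones and of transcription factors such as the FOXO proteins, lies on chromosome 10 from 67884669 to 67918390 on the plus strand (GRCh38, GENCODE release 29) and is protein-coding. Its FPKM was 13.9, 13.2 and 14.2 in the 3 DMSO libraries, 9.13, 9.65 and 8.96 in H93, and 9.90, 9.45 and 9.74 in SAHA. Every treated library was below every DMSO library, and the H93 and SAHA libraries overlapped. Relative to DMSO the mean was 0.672 of the control level in H93 and 0.705 of it in SAHA. The log2 difference was -0.53 (SE 0.0400, adjusted p = 1.59e-07) with H93 in limma, a larger absolute difference than in 86.7% of tested genes. With SAHA it was -0.46 (SE 0.0400, adjusted p = 9.51e-07, limma). H93 and SAHA differed by -0.06 for SIRT1, with a 95% interval from -0.15 to 0.02 (limma adjusted p = 0.258), so a difference between the compounds was not shown and the interval bounds it.

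The base content of 300-base promoter windows (250 bases before the start and 50 after it, from RefSeq, GRCh38.p14) is given next, with CpG sites, the sites at which UHRF1 binds hemimethylated DNA. By symbol 6 of the 7 sirtuins, all but SIRT7, matched a window, and SIRT4, SIRT5 and SIRT6 each matched a pair of them. SIRT1 had 39 CpG sites in its window, the SIRT5 windows had 34 and 37, SIRT3 had 31, the SIRT6 windows had 29 and 30, SIRT2 had 23, and the SIRT4 windows had 16 and 9. Over all 35116 windows in the RefSeq table the median was 14 CpG sites, with quartiles of 4 and 28. No methylation was measured here. The upstream sequence of SIRT1, which fell with both compounds, is shown with that of SIRT5 and SIRT6, which share a motif although SIRT5 fell and SIRT6 rose with H93. Only bases upstream of both the RefSeq and the GENCODE start are printed, 5′ to 3′ on the gene's strand. Capitals mark matches on either strand to the E-box CACGTG, the GC box GGGCGG, the CCAAT box CCAAT and the NRF1 palindrome, which is the last run of capitals in SIRT5, and neighbouring GC box and CCAAT box matches can overlap.
SIRT1 (chr10:67884406-67884655, plus strand): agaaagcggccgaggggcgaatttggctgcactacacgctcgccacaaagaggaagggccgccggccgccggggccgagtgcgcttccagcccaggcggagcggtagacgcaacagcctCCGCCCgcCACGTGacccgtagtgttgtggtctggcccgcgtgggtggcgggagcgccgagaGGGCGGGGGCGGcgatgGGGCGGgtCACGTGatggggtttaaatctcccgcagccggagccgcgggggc
SIRT5 (chr6:13574279-13574528, plus strand): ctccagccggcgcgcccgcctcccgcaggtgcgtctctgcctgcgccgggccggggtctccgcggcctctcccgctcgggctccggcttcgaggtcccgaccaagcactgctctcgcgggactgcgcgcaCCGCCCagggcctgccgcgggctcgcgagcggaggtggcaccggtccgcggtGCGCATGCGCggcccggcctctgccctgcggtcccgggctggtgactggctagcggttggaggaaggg
SIRT6 (chr19:4182605-4182813, minus strand): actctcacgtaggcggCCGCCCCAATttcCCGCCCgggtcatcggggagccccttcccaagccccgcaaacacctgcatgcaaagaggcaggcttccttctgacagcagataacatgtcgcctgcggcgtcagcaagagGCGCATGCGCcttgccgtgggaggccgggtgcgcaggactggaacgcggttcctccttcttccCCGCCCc
SIRT1 held 2 E-boxes and 4 GC boxes in this stretch. An E-box occurs in 7.26% of all 300-base windows and a GC box in 45% of them. The NRF1 motif, which occurs in 1.24% of windows, was present once each upstream of SIRT5 and SIRT6 and not in the windows of the other 4 sirtuins that had one. The ETS letters CCGGAAG occurred once in the SIRT3 window and once in the first SIRT6 window, beside 10.3% of all windows, and the E2F letters TTTNGCGC, found in 1.79% of windows, in none of the sirtuin windows. CCAAT, present in 34.6% of windows, occurred once each for SIRT2 and SIRT6. These matches describe letters only, and binding was not measured.

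SIRT6, a chromatin-bound enzyme that deacetylates histones and acts in telomere maintenance and DNA repair, lies on chromosome 19 from 4174109 to 4182604 on the minus strand. It stood at 13.3, 13.2 and 14.3 FPKM in DMSO, at 17.4, 16.8 and 18.8 in H93, and at 16.6, 17.2 and 14.8 in SAHA. All treated libraries were above all DMSO libraries, and SAHA replicate 3 was the lowest of the treated ones. The mean was 1.30 times the control with H93 and 1.19 times with SAHA. The log2 difference was 0.36 (SE 0.0559, adjusted p = 0.000101) for H93 and 0.24 (SE 0.0559, adjusted p = 0.00303) for SAHA, both in limma. Between the compounds it was 0.12, with a 95% interval from -0.0025 to 0.24 (limma adjusted p = 0.124).

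SIRT7, the nucleolar sirtuin known for its link to ribosomal RNA transcription, lies on chromosome 17 from 81911939 to 81921323 on the minus strand. Its FPKM was 9.26, 10.6 and 9.97 in DMSO, 10.5, 10.5 and 11.5 in H93, and 8.58, 9.90 and 8.50 in SAHA. The DMSO libraries overlapped both treated groups, but all H93 libraries were above all SAHA libraries. Neither compound passed against DMSO in limma, with a log2 difference of 0.12 for H93 (95% interval from -0.02 to 0.25, adjusted p = 0.106) and of -0.13 for SAHA (95% interval from -0.27 to 0.0014, adjusted p = 0.0820). The direct difference of H93 from SAHA passed, at 0.25 (SE 0.0613, adjusted p = 0.00948, limma), and the H93 mean was 1.21 times the SAHA mean. Single libraries decided the comparisons with DMSO: H93 passed without DMSO replicate 2 (limma adjusted p = 0.0491), and SAHA passed without DMSO replicate 1 (0.0366) or SAHA replicate 2 (0.0127).

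SIRT2, a mainly cytosolic deacetylase whose known substrates include alpha-tubulin, lies on chromosome 19 from 38878555 to 38899862 on the minus strand. It showed the largest difference of the family. Its FPKM was 11.01, 9.15 and 10.3 in DMSO, 16.7, 18.7 and 18.3 in H93, and 15.5, 13.8 and 14.9 in SAHA. No group overlapped another, and the order was DMSO, SAHA, H93. The mean was 1.77 times the control with H93 and 1.45 times with SAHA. In limma the log2 difference from DMSO was 0.77 (SE 0.0624, adjusted p = 2.97e-07) for H93 and 0.50 (SE 0.0624, adjusted p = 2.28e-05) for SAHA. The H93 difference was larger in absolute size than that of 94.8% of tested genes. For SIRT3, SIRT6, SIRT5 and SIRT7 this share with H93 was 83.3%, 73.5%, 68.8% and 31.3%. H93 exceeded SAHA by 0.26 (SE 0.0624, adjusted p = 0.00759, limma).

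Of the mitochondrial members, SIRT3 is the main deacetylase of the matrix, with substrates such as SOD2 and IDH2, and lies on chromosome 11 from 215458 to 236931 on the minus strand. It stood at 3.48, 3.84 and 3.84 FPKM in DMSO, at 2.40, 2.01 and 2.89 in H93, and at 2.66, 2.78 and 2.45 in SAHA. The H93 libraries spread more widely than those of the other groups, but all treated libraries were below all DMSO libraries. The mean was 0.654 of the control with H93 and 0.708 of it with SAHA. The log2 difference was -0.47 (SE 0.0812, adjusted p = 0.000234) with H93 and -0.38 (SE 0.0812, adjusted p = 0.00160) with SAHA, in limma. Between the compounds SIRT3 differed by -0.09, with a 95% interval from -0.27 to 0.09 (limma adjusted p = 0.438).

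SIRT5, which removes succinyl, malonyl and glutaryl groups, lies on chromosome 6 from 13574529 to 13615158 on the plus strand. Its FPKM was 2.41, 2.28 and 2.31 in DMSO, 1.69, 1.62 and 1.71 in H93, and 2.17, 1.84 and 2.14 in SAHA. The 3 groups did not overlap, with SAHA between DMSO and H93. The mean with H93 was 0.718 of the control (log2 difference -0.32, SE 0.0565, adjusted p = 0.000278, limma). With SAHA the mean was 0.879 of the control and the difference of -0.13 did not pass (95% interval from -0.25 to -0.0068, limma adjusted p = 0.0655), although it did without SAHA replicate 1 (limma adjusted p = 0.0499). SIRT5 was lower in H93 than in SAHA by a log2 difference of -0.19 (SE 0.0565, limma adjusted p = 0.0249). That last call was lost without H93 replicate 1 (0.0555), H93 replicate 2 (0.0728), SAHA replicate 1 (0.0839) or SAHA replicate 3 (0.0806).

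SIRT4, known as an inhibitor of glutamate dehydrogenase and for weak deacetylase activity, lies on chromosome 12 from 120302316 to 120313249 on the plus strand. It did not reach an FPKM of 1 in any library and was left out of the test by the filter. Its FPKM was 0.633, 0.751 and 0.718 in DMSO, 0.926, 0.670 and 0.833 in H93, and 0.514, 0.747 and 0.695 in SAHA, so all groups overlapped. When no filter was applied, its limma adjusted p over 16772 genes was 0.321 for H93, 0.653 for SAHA and 0.218 for H93 against SAHA.

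**Figure D2:**
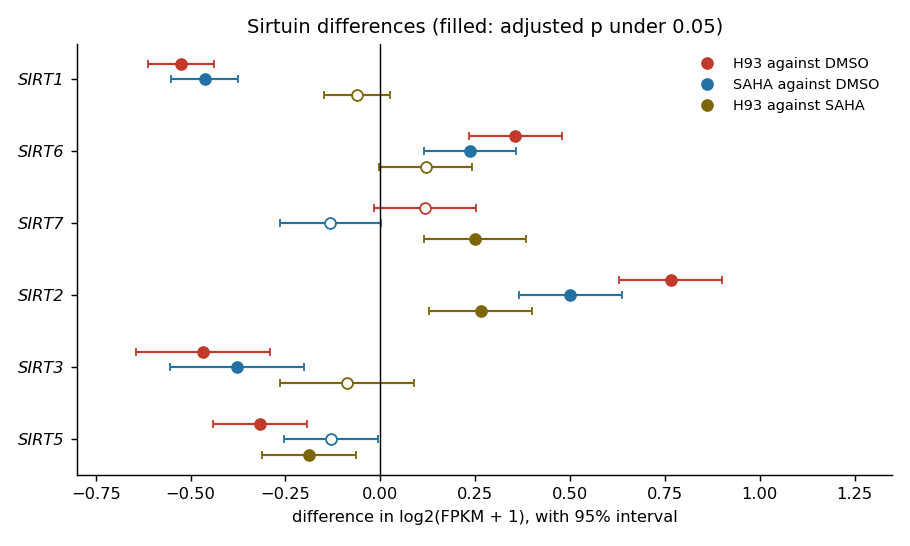
Differences in log2(FPKM + 1) for the 6 tested sirtuins in the 3 comparisons, with 95% intervals from limma and filled points where the adjusted p was under 0.05. SIRT2 has the largest rise (0.77 with H93) and on this scale SIRT1 has the largest fall (-0.53 with H93), though as a ratio of mean FPKM SIRT3 fell further (0.654 against 0.672), and SIRT7 passes only in the direct comparison of H93 with SAHA.

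The order of the levels changed with treatment. In DMSO, SIRT1 (13.8 ± 0.50, SD, n = 3) and SIRT6 (13.6 ± 0.594) were the most abundant and overlapped, followed by SIRT2 (10.1 ± 0.938) and SIRT7 (9.94 ± 0.666), which also overlapped. SIRT3 (3.72 ± 0.205), SIRT5 (2.33 ± 0.0654) and SIRT4 (0.701 ± 0.0612) followed, each below the one before it with no overlap. In H93, SIRT2 (17.9 ± 1.03) and SIRT6 (17.7 ± 1.03) led and overlapped, and SIRT7 (10.9 ± 0.587) and SIRT1 (9.25 ± 0.358) came next without overlap. In SAHA the order began with SIRT6 (16.2 ± 1.27) and SIRT2 (14.7 ± 0.859), which overlapped, before SIRT1 (9.70 ± 0.229) and SIRT7 (8.99 ± 0.784), which overlapped as well. SIRT3, SIRT5 and SIRT4 held the last places in every group.

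SIRT1 thus made up 25.4% of the summed sirtuin FPKM in DMSO, 15.3% in H93 and 17.6% in SAHA. SIRT2 made up 18.7%, 29.6% and 26.8% of it. The summed FPKM of all 7 genes was 54.2 ± 1.29 in DMSO, 60.6 ± 2.20 in H93 and 55.0 ± 1.48 in SAHA (SD, n = 3). The H93 sums, from 58.9 to 63.1, lay above all others, and the DMSO and SAHA sums overlapped.

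Several sirtuin genes overlap or begin beside another gene, and whether counting used strand is not given in the sources used here. SIRT2 overlaps NFKBIB, the NF-kB inhibitor beta gene, by 163 bases at their starts on opposite strands. NFKBIB stood at 26.3 ± 1.13 in DMSO, 27.3 ± 1.18 in H93 and 26.2 ± 0.195 in SAHA (SD, n = 3), and passed in neither comparison with DMSO (limma adjusted p = 0.248 and 0.927). SIRT3 overlaps PSMD13, a subunit gene of the proteasome's regulatory particle, by 386 bases, again at the starts on opposite strands, and their RefSeq promoter windows share 144 bases. PSMD13 rose where SIRT3 fell: its FPKM was 90.6, 87.2 and 86.1 in DMSO, 94.8, 93.1 and 93.2 in H93, and 96.7, 105 and 101 in SAHA. Its log2 difference was 0.09 (SE 0.0304, adjusted p = 0.0181) with H93 and 0.20 (SE 0.0304, adjusted p = 0.000137) with SAHA in limma.

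The start of ANKRD24, an ankyrin repeat gene, lies 750 bases from that of SIRT6 on the other strand. It was low, at 0.343 ± 0.0313 in DMSO, 1.01 ± 0.0622 in H93 and 0.861 ± 0.189 in SAHA (SD, n = 3), and the filter left it untested. All its treated libraries were above its DMSO libraries, as for SIRT6. SIRT7 shares 3054 bases with MAFG, a small MAF transcription factor gene on the same strand. MAFG stood at 28.0 ± 0.781 in DMSO, 28.0 ± 0.533 in H93 and 28.6 ± 0.202 in SAHA. Its log2 difference of H93 from SAHA was -0.03 (limma adjusted p = 0.451), where SIRT7 differed by 0.25. How reads in the overlaps were assigned was not tested.

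**Figure D3:**
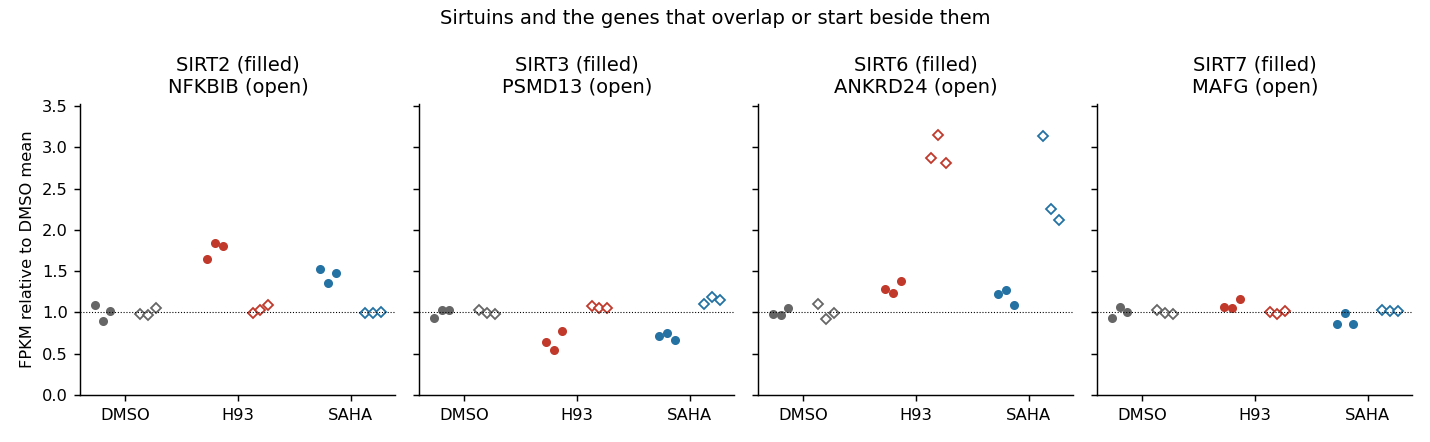
FPKM of each library divided by the gene's own DMSO mean, on a linear axis, for 4 sirtuins (filled) and the gene that overlaps or starts beside each (open), with a dotted line at 1. PSMD13 lies above 1 in treated libraries where SIRT3 lies below it, NFKBIB and MAFG stay close to 1, and ANKRD24, a low gene, lies above 1 in treated libraries as SIRT6 does.

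The genes whose profiles were most like those of the sirtuins were found as the smallest root mean square distance over the 9 libraries in log2(FPKM + 1) minus the DMSO mean. SIRT1 was closest to BMP1 (distance 0.0366), FAM53B and COQ8A. BMP1 went from 11.5 ± 0.172 in DMSO to 7.71 ± 0.352 in H93 and 8.17 ± 0.327 in SAHA (SD, n = 3). SIRT2 was closest to MAPRE3 (0.0474), PGF and DPYD, and MAPRE3, which encodes a microtubule end-binding protein, went from 9.37 ± 0.745 to 16.7 ± 0.366 and 13.9 ± 0.703. DPYD was low, at 0.229 ± 0.0516 in DMSO, 1.08 ± 0.0429 in H93 and 0.768 ± 0.139 in SAHA, and only its H93 libraries reached an FPKM of 1. As a ratio it rose more than SIRT2, and the 2 look alike only on this scale, which understates changes at low FPKM. For SIRT3 the closest were MFSD3 (0.0515), TMEM242 and RNF157, for SIRT5 OARD1 (0.0321), SNRNP40 and USP43, and for SIRT6 NDFIP1 (0.0435), LYPLAL1 and PPM1K. PPM1K was also low, at 0.744 ± 0.0274 in DMSO, 1.30 ± 0.145 in H93 and 1.05 ± 0.123 in SAHA, and as a ratio rose more than SIRT6. All DMSO libraries of DPYD and PPM1K were under an FPKM of 1. The filter kept both only through treated libraries, so they could enter this search only by rising. OARD1, which encodes an enzyme that removes ADP-ribose derivatives, went from 5.03 ± 0.274 to 3.85 ± 0.115 with H93 and 4.43 ± 0.337 with SAHA.

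NAMPT and NAPRT, which feed the synthesis of NAD+, the sirtuin cosubstrate, fell with both compounds. Of 15 listed genes of NAD+ synthesis and salvage 13 were in the table and 8 were tested. Of these, 5 fell and 2 rose with H93 (87.5% passed, against 69.8% of all tested genes), and 4 fell and 1 rose with SAHA (62.5% passed, close to the 58.8% of all tested genes). By direction, 25% were higher and 62.5% lower with H93, beside 34.9% and 35.0% of all tested genes. With SAHA 12.5% were higher and 50% lower, beside 27.4% and 31.4%. The median log2 difference of the list was -0.23 and -0.18, where over all tested genes it was 0.0016 and -0.015. NAMPT, which makes nicotinamide mononucleotide from nicotinamide and limits the salvage route, was 66.4, 65.7 and 64.5 FPKM in DMSO, 38.4, 40.6 and 39.1 in H93, and 41.6, 41.4 and 39.3 in SAHA. Its groups of treated libraries overlapped each other and lay below DMSO, with a log2 difference of -0.72 (SE 0.0304, adjusted p = 8.90e-10) for H93 and -0.67 (SE 0.0304, adjusted p = 3.65e-09) for SAHA in limma. NAPRT, which starts NAD+ synthesis from nicotinic acid, fell from 35.4 ± 0.385 to 21.7 ± 0.873 with H93 and 23.8 ± 0.949 with SAHA. KYNU, kynureninase of the route from tryptophan, fell from 8.31 ± 0.273 to 4.70 ± 0.567 and 4.71 ± 0.661. NAMPT, NAPRT and KYNU had the 3 largest H93 differences of the list, and its genes that rose are not named here. NMNAT1, the nuclear enzyme of the last step, fell from 2.31 ± 0.187 to 1.83 ± 0.0534 with H93 (log2 difference -0.22, limma adjusted p = 0.00871). With SAHA it stood at 2.15 ± 0.246 and did not pass (limma adjusted p = 0.359).

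All 8 tested genes of NAD+ and nicotinamide handling passed with each compound, 3 higher and 5 lower, where 69.8% of all tested genes passed with H93 and 58.8% with SAHA. By direction, 37.5% were higher and 62.5% lower with each compound. Over all tested genes it was 34.9% and 35.0% with H93, and 27.4% and 31.4% with SAHA. The list had a median of -0.30 for H93 and -0.26 for SAHA, beside 0.0016 and -0.015 over all tested genes. NNMT, which methylates nicotinamide and so removes it from salvage, fell from 44.6 ± 0.0836 to 19.2 ± 0.454 with H93 and 20.2 ± 0.547 with SAHA (SD, n = 3). NNT, the mitochondrial transhydrogenase that couples NADH to NADPH, fell from 11.8 ± 0.251 to 5.68 ± 0.0622 and 6.81 ± 0.136. AOX1, an aldehyde oxidase that acts on methylated nicotinamide, rose from 0.642 ± 0.126 to 4.42 ± 0.189 and 3.63 ± 0.256. All its DMSO libraries were under an FPKM of 1. The filter kept AOX1 only through its treated libraries, so it could enter the test, and the 3 called higher, only by rising.

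**Figure D4:**
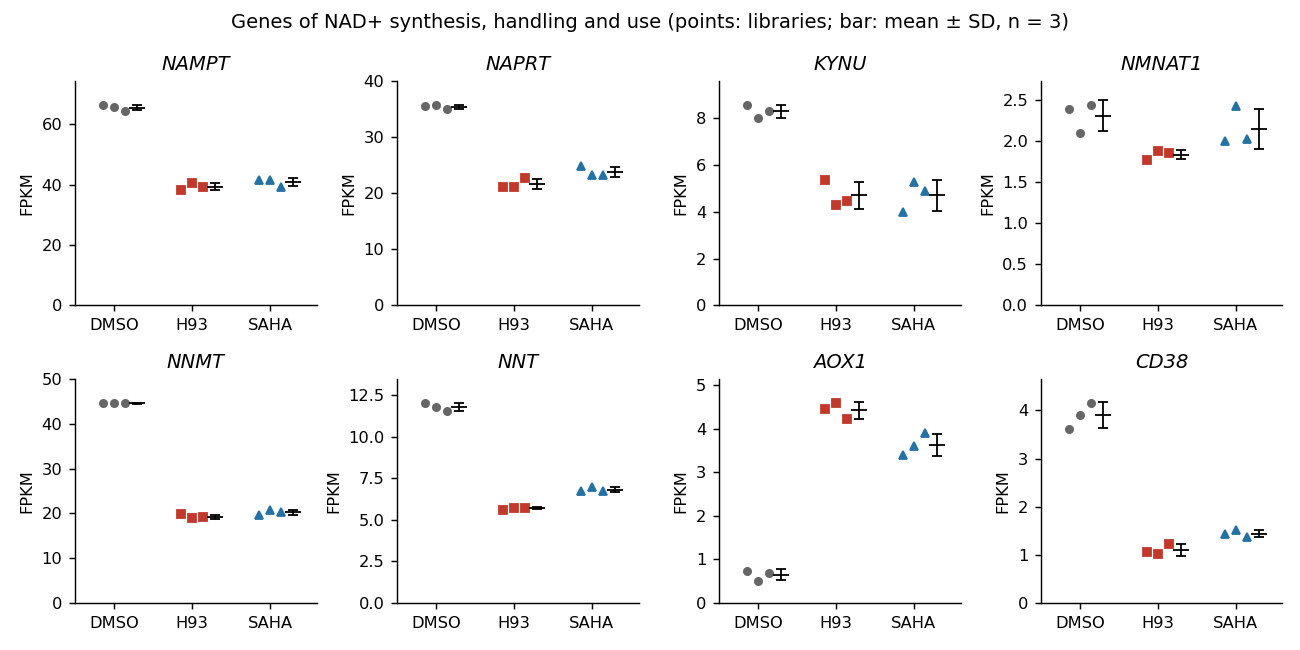
FPKM by group for 8 genes of NAD+ synthesis, handling and use, with 1 point per library, the mean ± SD (n = 3) and a separate linear scale from 0 in each panel. NAMPT, NAPRT, KYNU, NNMT, NNT and CD38 are lower in all treated libraries than in all DMSO libraries, and AOX1 is higher in all of them.

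Of 19 other NAD+-consuming enzymes 14 were tested, of which 3 rose and 5 fell with H93 and 2 rose and 5 fell with SAHA, with medians of -0.0030 and 0.0073. The shares that passed, 57.1% and 50%, were below those of all tested genes (69.8% and 58.8%). CD38, an NAD+ glycohydrolase, fell from 3.90 ± 0.272 to 1.10 ± 0.117 with H93 and 1.43 ± 0.0724 with SAHA (SD, n = 3). PARP1, the main poly(ADP-ribose) polymerase of DNA repair, fell from 106 ± 0.587 to 89.6 ± 0.830 and 98.5 ± 1.08, and PARP4 from 22.1 ± 0.373 to 16.1 ± 0.466 and 18.4 ± 0.0598. TIPARP, a mono-ADP-ribosyltransferase induced by the aryl hydrocarbon receptor, rose from 14.6 ± 0.978 to 24.7 ± 0.312 and 20.2 ± 0.321.

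Among 17 tested regulators of sirtuin activity or transcription, 6 rose and 8 fell with H93 (median -0.019), and 5 rose and 8 fell with SAHA (median -0.070). The shares that passed were 82.4% and 76.5%, beside 69.8% and 58.8% of all tested genes. CCAR2, whose product binds and inhibits SIRT1, fell from 29.7 ± 0.449 to 27.2 ± 1.03 with H93 and 26.5 ± 0.931 with SAHA (SD, n = 3). RPS19BP1, which encodes a SIRT1-binding activator, rose from 87.7 ± 0.445 to 93.6 ± 4.497 with H93 (log2 difference 0.09, limma adjusted p = 0.0188), though H93 replicate 1, at 88.4, lay close to the highest DMSO library at 88.0. With SAHA it stood at 88.5 ± 1.28 (limma adjusted p = 0.733). HIC1, a transcriptional repressor of SIRT1, was below the filter, at 0.808 ± 0.142 in DMSO, 0.655 ± 0.187 in H93 and 0.617 ± 0.139 in SAHA. The largest differences of the list were those of the methyltransferase gene PRMT1, from 114 ± 0.929 to 64.9 ± 1.24 and 76.0 ± 1.45, the kinase gene MAPK8, from 14.9 ± 0.299 to 21.5 ± 0.460 and 18.6 ± 0.414, and DYRK3, from 2.04 ± 0.0487 to 3.18 ± 0.0402 and 2.52 ± 0.140.

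Of 25 tested nuclear and cytosolic targets, which share FOXO3 with the tested regulators, 9 rose and 12 fell with H93 (median -0.078), and 5 rose and 11 fell with SAHA (median -0.081). That is 84% and 64% of the list, beside 69.8% and 58.8% of all tested genes. EPAS1, a hypoxia-inducible factor gene, fell from 18.0 ± 0.340 to 12.1 ± 0.272 with H93 and 8.77 ± 0.693 with SAHA (SD, n = 3), and SREBF1 fell by 1.38 and 1.17 on the log2 scale. None of 17 nucleolar and chromatin partners of SIRT6 and SIRT7 passed as higher in limma with either compound, while 11 fell with H93 (median -0.16) and 9 with SAHA (median -0.088). Over all tested genes 34.9% were higher and 35.0% lower with H93, and 27.4% and 31.4% with SAHA. The shares that passed in either direction, 64.7% and 52.9%, were near those of all tested genes (69.8% and 58.8%). UBTF, a ribosomal RNA transcription factor, fell from 32.2 ± 1.08 to 25.2 ± 0.376 and 29.2 ± 0.491, and NPM1, a nucleolar chaperone, from 439 ± 3.11 to 322 ± 4.23 and 374 ± 15.1.

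Of 26 tested mitochondrial deacylation targets 3 rose and 14 fell with H93 (median -0.11), and 4 rose and 13 fell with SAHA (median -0.067). With each compound 65.4% passed, near the 69.8% and 58.8% of all tested genes. By direction, 11.5% were higher and 53.8% lower with H93, beside 34.9% and 35.0% of all tested genes. With SAHA 15.4% were higher and 50% lower, beside 27.4% and 31.4%. SOD2, the matrix superoxide dismutase, fell from 8.58 ± 0.246 to 7.43 ± 0.177 with H93 and 7.12 ± 0.115 with SAHA (SD, n = 3). IDH2 fell from 26.4 ± 0.964 to 23.7 ± 0.233 with H93, and with SAHA it stood at 25.2 ± 0.178 (limma adjusted p = 0.109). ACAT1, a mitochondrial thiolase, fell from 47.6 ± 0.654 to 33.6 ± 0.606 and 39.1 ± 3.21. PDP1, the phosphatase that activates pyruvate dehydrogenase, rose from 19.4 ± 0.0839 to 36.02 ± 0.580 and 28.9 ± 0.383.

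Of 11 tested genes of the zinc-dependent histone deacetylases 5 rose and 4 fell with each compound (81.8%, beside 69.8% of all tested genes with H93 and 58.8% with SAHA), with a median log2 difference of 0.095 for H93 and 0.046 for SAHA and a median absolute difference of 0.369 and 0.235. HDAC9 rose from 0.447 ± 0.00165 to 1.24 ± 0.0625 with H93 and 1.17 ± 0.0375 with SAHA (SD, n = 3), HDAC5 from 6.14 ± 0.210 to 9.53 ± 0.0732 and 8.68 ± 0.353, and HDAC6, a cytosolic tubulin deacetylase like SIRT2, fell from 6.76 ± 0.319 to 4.66 ± 0.250 and 5.41 ± 0.259. All DMSO libraries of HDAC9 were under an FPKM of 1. The filter kept HDAC9 only through its treated libraries, so it could enter the test only by rising. In H93 against SAHA 1 of the 11 passed as higher and 2 as lower. That is 27.3% of the list, near the 31.5% of all tested genes (17.6% higher and 13.9% lower). No test of the sirtuins against this family was made.

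**Figure D5:**
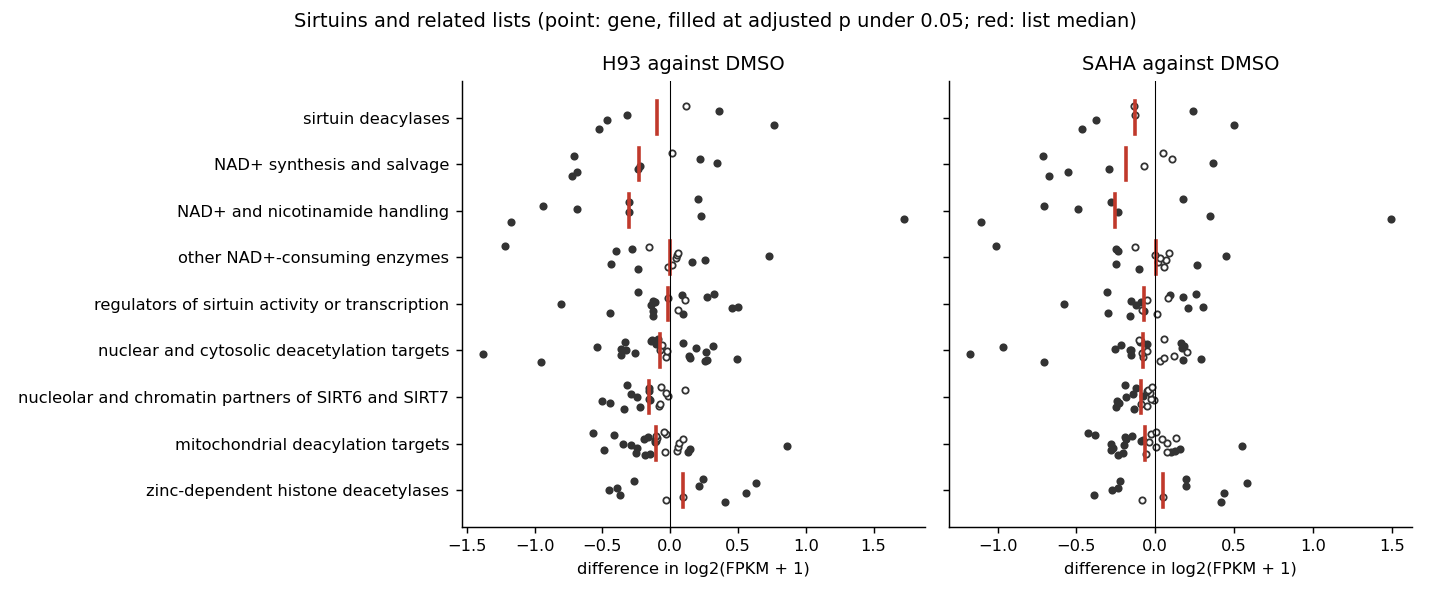
Differences in log2(FPKM + 1) from DMSO for each tested gene of the sirtuins and 8 related lists, with H93 on the left and SAHA on the right, filled points at an adjusted p under 0.05 and a red line at each list's median. The sirtuin medians of -0.10 and -0.13 hide members between -0.53 and 0.77 with H93. The lists of NAD+ synthesis and of NAD+ handling have lower medians with both compounds, and the other NAD+-consuming enzymes have higher ones (-0.0030 and 0.0073). With H93 the nucleolar (-0.16) and mitochondrial (-0.11) lists also have lower medians than the sirtuins.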

How the data were processed

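RNA of the 9 libraries was extracted with TRIzol and prepared with a stranded TruSeq mRNA kit, per the labels' protocols. The authors deposited 1 table of FPKM per gene and library. Per the submitters' processing notes, reads went through software that included Cufflinks, HISAT2 and Trimmomatic 0.36, with the build GRCh38.p13, and no step is tied to a tool. Whether reads were assigned by strand is not stated there. Columns were matched to samples by name and groups taken from the sample titles. Members and gene lists were chosen with earlier results of these data known.

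The filter kept 11525 of 16772 genes. On log2(FPKM + 1), limma 3.58.1 (R 4.3.3) estimated the mean of each group from its own libraries and the spread of each gene from all 9 libraries. The variance prior had a trend, and the tests were two-sided. The procedure was also run on simulated data in which 200 of 11525 genes were changed 1.5-fold or 2-fold with H93. It recovered 100% of these, and 6.54% of its calls were false. Far more genes passed in the real data, so its error rate there was not tested. Exact permutation of 3 against 3 libraries cannot give p below 0.1 and was not used. Named genes were the sirtuins, their neighbours in GENCODE release 29, the 3 closest profiles per called member, the 3 largest H93 differences of each list, and genes fixed by role, among them HDAC1 and UHRF1. Some genes that this rule names are not reported here. UHRF1 fell from 51.6 ± 1.02 to 34.2 ± 1.24 FPKM with H93 and to 37.7 ± 1.08 with SAHA (SD, n = 3). Relative depth came from the ratios that values under 0.1 FPKM most often took. Alternatives changed the pseudocount, filter, scaling or moderation, restricted the fit to the groups compared, added a replicate block, or left out 1 library. Python 3.11.15, pandas 2.3.3 and numpy 2.4.6 were used for the tables.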

Additional observations from a re-analysis of the deposited data

How the results depend on the processing

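Under the 19 alternatives, 327 of 336 sirtuin differences kept their direction and their side of the threshold. With a mean FPKM of at least 5 required, SIRT3 and SIRT5 were no longer tested, and 3 of 4 remaining sirtuins passed for H93 against DMSO. Under that filter 5948 of all 8041 tested genes passed in the same comparison. Leaving out single libraries, 5 to 6 sirtuins passed for H93 against DMSO, 4 to 5 for SAHA against DMSO and 2 to 3 for H93 against SAHA. In the same fits, between 7513 of 11442 and 8088 of 11514 of all tested genes passed for H93 against DMSO. For SAHA against DMSO it was between 6107 of 11442 and 6757 of 11485, and for H93 against SAHA between 2776 of 11485 and 3553 of 11445. SIRT3 in H93 against SAHA, not called, was -0.09 and ranged from -0.18 to 0.0026 when single libraries were left out, the latter without H93 replicate 2, the lowest H93 library for this gene. The other 8 changes of call, all from leaving out 1 library, concern SIRT5 and SIRT7 and are given with those genes. With the replicate block 5, 4 and 3 sirtuins passed in the 3 comparisons, as without it. Of all 11525 tested genes 7986, 6649 and 3426 passed with the block. Deviations of same-numbered libraries correlated between -0.0975 and 0.0355, and not every library correlated best with its own number, so the numbers were not used as pairs. No scaling moved the median of all genes by more than 0.02 on the log2 scale. Read depth was unknown, so counting error of the low members SIRT3, SIRT4 and SIRT5 could not be given.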

Other observations

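The genes with the nearest start on the other strand to SIRT1, SIRT4, SIRT5 and SIRT7 lay further away. DNAJC12, a cochaperone gene whose start is 46503 bases from that of SIRT1, rose from 0.726 ± 0.122 FPKM in DMSO to 2.53 ± 0.304 in H93 and 1.99 ± 0.259 in SAHA (SD, n = 3), while SIRT1 fell with both. All DMSO libraries of DNAJC12 were under an FPKM of 1, so the filter kept it only through its treated libraries. GFOD1, 86867 bases from SIRT5, stood at 1.75 ± 0.0772, 1.99 ± 0.104 and 1.57 ± 0.0327, and only H93 against SAHA passed (log2 difference 0.22, limma adjusted p = 0.00891), in the direction opposite to SIRT5. NPB beside SIRT7 and PLA2G1B beside SIRT4 were under 0.46 FPKM in every library and were not tested.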
